A study of Mus musculus with 15 samples.

Results

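Wild-type (WT) mouse RPE cells grown in culture (mRPE) were compared with WT mouse RPE/choroid, the tissue in which the RPE (retinal pigment epithelium) lies on the vascular choroid. Only the libraries labelled WT were taken, which are 4 of cultured mRPE and 3 of RPE/choroid, that is 7 of the 15 libraries of the series. The count table of the cultured cells lists 20910 genes and that of the tissue 25038. The 19439 genes listed in both were joined on their Ensembl identifier, mitochondrially encoded (mt-) genes were left out before normalization, and the 19377 of them that reached 5 counts in 3 or more of the 7 libraries were tested. A further 1470 genes were listed only for the cultured cells and 5591 only for the tissue, again without mt- genes, and these are described apart.

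The cultured cells were a line started from the pooled RPE of young adult C57BL/6J mice and immortalized with lentiviral HPV E6/E7, the papillomavirus proteins that act on p53 and RB. To make the knockout lines, cells of this line were made to express Cas9 under puromycin selection, and a scrambled guide RNA was used beside the *Prom1* guide. Whether the WT libraries are of cells with Cas9 or the scrambled guide is not given in the sources used here. The line was grown with serum, hydrocortisone, taurine and triiodothyronine. The labels give 1 WT cell line and no separate cultures, so the spread between the 4 libraries may be technical. Of these libraries, culture 1 has the library-name prefix 8995 and culture 2 to 4 the prefix 9262. The tissue was dissected from WT mice, all 3 libraries with the prefix 12965, and whether those mice carried Cre or received tamoxifen is not given in the sources used here. Culture and tissue were thus sequenced in different sets, so the set and the comparison cannot be told apart.

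The RPE is a monolayer of pigmented epithelial cells between the photoreceptors and the choroid. It turns all-trans-retinol back into 11-cis-retinal in the visual cycle, makes melanin, moves ions, water and lactate between retina and blood, engulfs the shed tips of photoreceptor outer segments, and builds Bruch's membrane together with the choroid. RPE cells that divide in a dish commonly become flatter and paler and take on features of mesenchymal cells.

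Outside mt- genes, the culture libraries held 7982552 to 21600171 counts and the tissue libraries 16230866 to 19655673. The mt- genes themselves took 17.6% to 21.6% of all counts in culture and 64.9% to 69.1% in tissue. Levels are given as CPM, counts per 1000000 counts of a library outside mt- genes, and 3 counts correspond to 0.139 to 0.376 CPM in the culture libraries. Fold changes are culture minus tissue on the log2 scale, fitted in edgeR (quasi-likelihood, TMM scaling) and given with their standard error (SE). The RNA types differed between the sets. Protein-coding genes took 89.0% to 92.7% of the counts in culture and 71.4% to 74.3% in tissue, the nuclear RNA *Malat1* had 7361 to 9520 CPM in culture and 69079 to 82542 CPM in tissue, and *Rn7sk* had 6.01 to 11.2 and 1093 to 1575 CPM. The part of these differences in the results below was not tested, and with protein-coding genes tested alone 1655 genes were higher and 2715 lower.

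With both limits applied, 0.05 for the adjusted p and 1.2 for the size of the log2 fold change, 6640 genes differed (34.3% of the genes tested), 2767 of them higher in culture (14.3%) and 3873 lower (20.0%). The median log2 fold change over all genes tested was -0.01. A gene was counted as held at a like level, or kept, where its log2 fold change was under 1 in size and the 95% interval lay inside -1.2 to 1.2, which 7923 genes met (40.9%). Every culture library lay above every tissue library in 36.2% of the genes tested and below in 27.8%. That overlap was taken on CPM, without the TMM factors of the fit, so it and the calls rest on different scalings. Of the genes in the tissue table, 22.4% were listed there only, as were 7.04% of those in the culture table. List counts below are to be read beside these shares, and no list was tested against them. Every listed gene of either table had at least 5 normalized counts in at least 3 libraries of that table, which is 0.405 to 0.469 CPM in the culture libraries. No level and no fold are given for a gene in the table that does not list it. A gene under 5 counts in every culture library was tested only where all 3 tissue libraries reached 5 counts, which sets its direction in advance. A gene under 5 counts in every tissue library was likewise tested through the culture libraries alone.

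**Figure D1:**
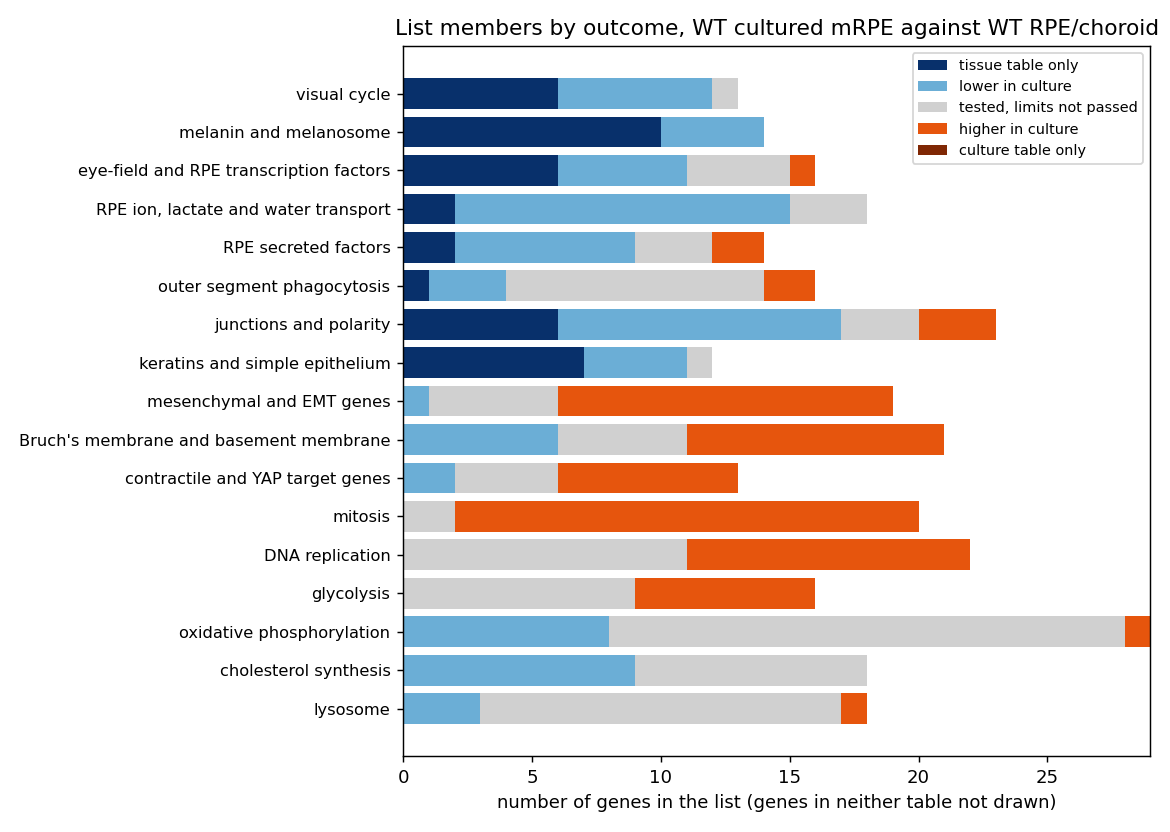
Members of the RPE, epithelium, matrix, cell cycle and metabolism lists by outcome in cultured mRPE against RPE/choroid. Each bar is a list and its segments count the members listed in the tissue table only, lower in culture, not passing the limits, higher in culture, and listed in the culture table only. Of the 14 melanin and melanosome genes 10 were listed for the tissue only and 4 were lower, whereas 18 of the 20 mitosis genes were higher.

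Visual cycle genes were listed for the tissue only or were lower, with 1 exception. Of the 13 genes in the list, 6 were listed in the tissue table only and 6 of the 7 that could be tested were lower in culture, with a median log2 fold change of -4.68. *Rpe65*, the isomerase that makes 11-cis-retinol, had 1015, 742 and 1086 CPM in the tissue libraries and was listed there only. *Lrat*, which esterifies retinol for that enzyme, had 594, 395 and 624 CPM and *Rlbp1*, which binds 11-cis-retinoids, 206, 114 and 195 CPM, both in the tissue table only. Tissue 2 was the lowest tissue library for each of these genes. Per kilobase of exon, *Rpe65* stood at percentile 99.9 of the tissue table, *Rgr*, an opsin of the RPE, at 99.9, and *Ttr*, the carrier of thyroxine and retinol-binding protein, at 100.0. In these bulk samples fewer cells of a type and less RNA per cell cannot be told apart.

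*Rdh5*, the main 11-cis-retinol dehydrogenase of the RPE, had 4.21, 5.75, 5.89 and 5.77 CPM in culture and 238, 185 and 235 CPM in tissue. The groups did not overlap, and the log2 fold change was -5.54 (SE 0.15, adjusted p = 1.99e-08, edgeR), or 46.5-fold lower. *Stra6*, the receptor through which retinol enters the RPE, had 6.02, 3.74, 1.38 and 2.60 CPM against 188, 94.5 and 148 CPM (log2 fold change -5.44, SE 0.44). *Rdh10* had 9.12 to 13.8 CPM in culture and 181 to 277 CPM in tissue, and *Rrh*, another RPE opsin, 0.639 to 1.00 CPM and 71.6 to 88.1 CPM, with log2 fold changes of -4.68 and -6.69. *Rdh11*, a retinol dehydrogenase found in many tissues, was the member that met the rule for a like level, with 24.3 ± 0.766 CPM in culture (SD, n = 4) and 12.9 ± 3.53 CPM in tissue (SD, n = 3) (log2 fold change 0.74).

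Melanin and melanosome genes followed the same pattern, and all 14 were either listed in the tissue table only (10) or lower (4). *Tyr*, the enzyme that starts melanin synthesis, had 347, 260.4 and 247 CPM in tissue, *Tyrp1* 1356, 1341 and 1105 CPM and *Dct* 1978, 1885 and 1192 CPM. *Pmel*, which forms the fibrils on which melanin is laid down, had 2.31, 2.55, 2.88 and 2.89 CPM in culture and 675, 685 and 554 CPM in tissue, 274-fold lower (log2 fold change -8.10, SE 0.17, adjusted p = 1.63e-08, edgeR). *Rab27a*, a GTPase that tethers melanosomes, was lower with a log2 fold change of -5.59, and *Mlph*, its partner, had 166 to 173 CPM in the tissue table only. The smallest change among the 4 tested was that of *Gpnmb*, a melanosomal and lysosomal glycoprotein, with 77.3, 149, 178 and 173 CPM in culture and 1396, 1145 and 1045 CPM in tissue (log2 fold change -3.25, SE 0.25). Melanocytes of the choroid express these genes as well as the RPE, and the tissue libraries hold both.

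The promoters of 3 of these genes are shown because they share a sequence. Each line gives 150 bases up to the base before the RefSeq start, with coordinates found by exact match in GRCm39, and capitals mark CATGTG or its reverse CACATG, the core of the element that MITF binds. The regions are chr7:87142721-87142870 on the minus strand for *Tyr*, chr4:80752300-80752449 on the plus strand for *Tyrp1* and chr7:63803433-63803582 on the plus strand for *Trpm1*, of whose 2 entries the one holding the match is printed.
Tyr: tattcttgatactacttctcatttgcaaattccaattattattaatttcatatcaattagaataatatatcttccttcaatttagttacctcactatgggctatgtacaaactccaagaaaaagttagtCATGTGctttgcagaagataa
Tyrp1: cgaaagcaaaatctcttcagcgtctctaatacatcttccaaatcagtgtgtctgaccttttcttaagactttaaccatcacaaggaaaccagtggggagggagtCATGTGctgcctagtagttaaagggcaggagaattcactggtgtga
Trpm1: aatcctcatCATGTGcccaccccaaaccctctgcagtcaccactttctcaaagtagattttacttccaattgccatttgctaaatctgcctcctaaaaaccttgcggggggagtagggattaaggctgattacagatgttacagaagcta
The match begins 21 bases before the start in *Tyr*, 46 in *Tyrp1* and 141 in *Trpm1*. Of the 14 melanin and melanosome genes 9 had entries among RefSeq promoters (GRCm38.p6), with 11 promoters, and 6 of these (54.5%) held the sequence on either strand within 250 bases before the start. Of all 32851 RefSeq promoters 12.3% did, and of the 17 promoters of visual cycle genes 2 did (11.8%). A match is a description of letters and not a site of binding.

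The transcription factors that specify the eye and the RPE were split. *Mitf*, which drives melanocyte and RPE pigment genes, had 3.52, 8.21, 8.64 and 8.08 CPM in culture and 195, 192 and 168 CPM in tissue, 30.5-fold lower (log2 fold change -4.93, SE 0.26, adjusted p = 4.84e-07, edgeR). *Pax6*, the eye-field factor, had 0.972, 1.09, 0.877 and 2.31 CPM against 342, 191 and 193 CPM (log2 fold change -7.73), and *Otx2*, its partner in the RPE, 191, 102 and 159.8 CPM in the tissue table only. *Lhx2* (log2 fold change -3.27, and -2.69 without tissue 1), *Sox9* (-1.95) and *Meis1* (-2.11) were lower too. *Crx*, *Six3*, *Six6*, *Rax* and *Tfec* were listed for the tissue only. *Meis2* and *Nr2f2*, by contrast, met the rule for a like level, with 181 to 238 and 72.9 to 89.8 CPM in culture and 101 to 133 and 86.1 to 90.8 CPM in tissue. *Pax2*, the factor of the optic stalk and of the kidney, was the member that was higher, with 4.58, 9.58, 9.27 and 10.5 CPM in culture and 0, 0 and 0.772 CPM in tissue (log2 fold change 4.80, SE 0.82, adjusted p = 7.66e-04, edgeR). Without tissue 1 the log2 fold change of *Pax2* was 4.16. Its tissue counts came from tissue 3, and against a floor of 3 counts over tissue 1 and 2 it was at least 101-fold higher in culture. Of the other members *Vax2* and *Nr2f1* passed neither rule, although *Vax2* was called higher without tissue 3 (2.51), and *Vax1* was not analysed here.

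Genes for ion, lactate and water transport were lower, but most stayed detectable. Of 18 genes 13 were lower, 2 were listed for the tissue only and 0 were higher (edgeR, also 0 in DESeq2 and 0 at an unadjusted p under 0.05), with a median log2 fold change of -1.83. Beside this, 20.0% of all genes tested were lower and 22.4% of the tissue table was listed there only. *Slc4a5*, a bicarbonate transporter, changed most, from 632, 339 and 440.2 CPM in tissue to 0.741, 0.456, 0.251 and 0 CPM in culture (log2 fold change -10.21, SE 0.49, and -11.12 without culture 1). *Kcnj13*, the apical potassium channel of the RPE, had 10.5, 12.6, 15.2 and 14.7 CPM in culture and 338, 323 and 404 CPM in tissue (30.6-fold lower), and the carbonic anhydrases *Car12* and *Car14* had log2 fold changes of -6.12 and -5.13. *Slc16a8*, the basolateral lactate transporter of the RPE, had 72.7 to 99.6 CPM in the tissue table only. The widely expressed lactate transporter *Slc16a1* and the glucose transporter *Slc2a1* differed less, with log2 fold changes of -1.43 and -2.68. *Best1*, the chloride channel often used as an RPE marker, was low in both groups, with 3.70, 4.20, 4.76 and 5.68 CPM in culture and 3.71, 5.67 and 6.50 CPM in tissue (log2 fold change -0.39, SE 0.24), and met the rule for a like level. It therefore did not separate the groups here. *Aqp1*, a water channel, stood apart in culture 1, at 7.55 CPM against 45.6 to 55.8 CPM in culture 2 to 4 and 94.0 to 116 CPM in tissue (log2 fold change -1.56 over all 7 libraries, with an adjusted p of 0.051 in edgeR without tissue 3).

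Most genes of outer segment phagocytosis were held at a like level. Of 16 genes, 10 met the rule for a like level (40.9% of all genes tested did), 2 were higher, 3 lower and 1 was listed for the tissue only, with a median log2 fold change of 0.05. *Mertk*, the receptor that triggers ingestion, had 52.8, 82.1, 73.3 and 89.3 CPM in culture and 95.7, 108 and 104 CPM in tissue (log2 fold change -0.66, SE 0.14). The integrin subunits that bind outer segments were close between the groups, *Itgav* with 350.2, 386, 337 and 342 and 295, 230.2 and 317 CPM and *Itgb5* with 47.9, 78.1, 76.3 and 88.9 and 44.5, 48.4 and 49.9 CPM. So were the bridging proteins *Pros1* (log2 fold change -0.31) and *Mfge8* (-0.52) and the uptake machinery *Dock1*, *Rac1*, *Cd81* and *Ptk2*, whose log2 fold changes lay between 0.05 and 0.33. *Anxa2* met the rule too, at -0.70. *Gas6*, the other ligand of MERTK, was higher, with 342, 513, 742 and 782 CPM in culture and 168, 134 and 151 CPM in tissue (log2 fold change 1.78, SE 0.25, adjusted p = 2.14e-04, edgeR), and so was the receptor *Axl* (1.93). *Tyro3* (-2.68), *Myo7a*, the myosin that moves phagosomes and melanosomes (-1.95), and *Elmo1* (-1.39) were lower, and the scavenger receptor *Cd36* was listed for the tissue only. The genes of this list are used by many cell types, and their summed share was 0.310 to 0.369% of the counts in culture and 0.233 to 0.266% in tissue.

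**Figure D2:**
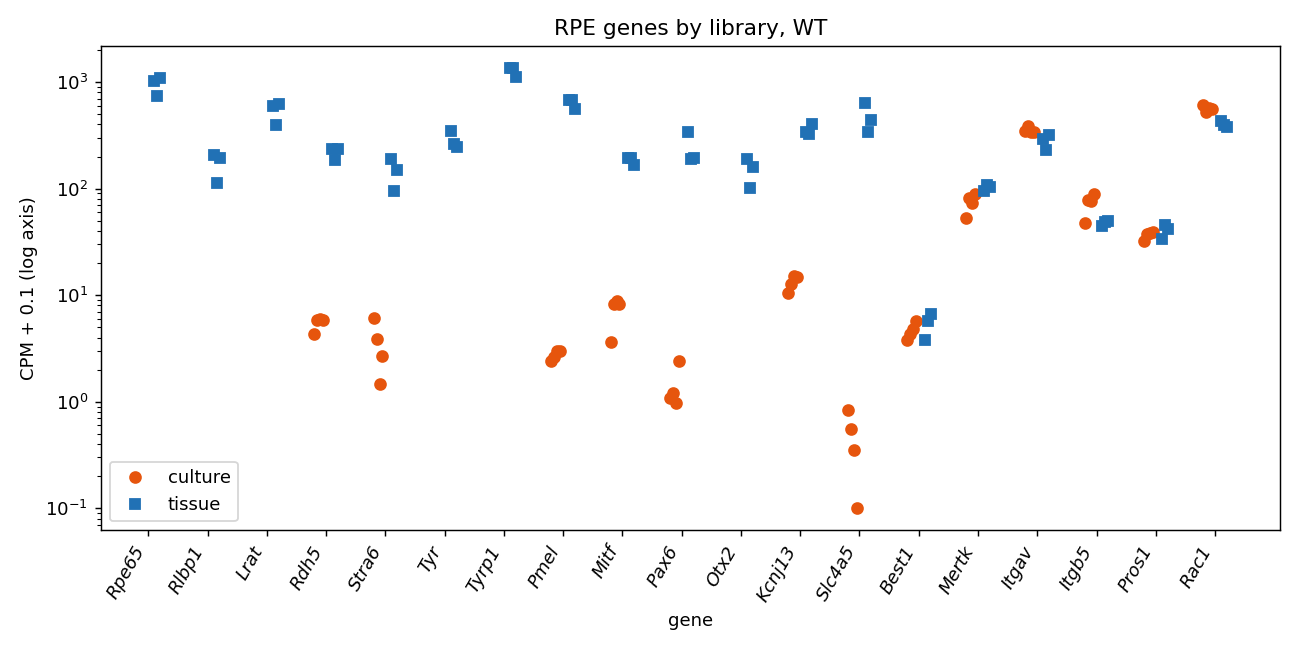
Level of selected RPE genes in each library, in CPM on a log axis with 0.1 CPM added. Circles are the 4 culture libraries and squares the 3 tissue libraries, and genes with squares alone were listed in the tissue table only. The genes of phagocytosis drawn, from *Mertk* to *Rac1*, all met the rule for a like level. Members of that list that were higher or lower in culture are not drawn. The groups of *Rdh5*, *Pmel*, *Pax6* and *Kcnj13* lie far apart.

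Among factors that the RPE secretes, the direction depended on the gene. Of 14, 7 were lower, 2 were listed for the tissue only and 2 were higher. Among all genes tested 20.0% were lower and 14.3% higher, and 22.4% of the tissue table was listed there only. *Serpinf1*, which encodes PEDF, an inhibitor of vessel growth, was higher, with 708, 797, 893 and 915 CPM in culture and 175, 329 and 389.6 CPM in tissue (log2 fold change 1.30, SE 0.24, adjusted p = 0.00103, edgeR), and at 1.00 without tissue 1 it no longer passed the limit on the fold. The matrix protein gene *Efemp1* was higher still, with 1698 to 2015 CPM against 263 to 372 CPM (log2 fold change 2.41). *Igfbp5* had 0.139, 1.09, 2.63 and 0.673 CPM in culture and 1289.9, 2004 and 1731 CPM in tissue (log2 fold change -10.97, SE 0.61, and -11.74 without culture 3), and *Apoe*, the lipid carrier, 1.71, 5.20, 6.01 and 8.37 against 1369.5, 1085 and 823 CPM (log2 fold change -7.94). *Cst3*, *Enpp2*, *Clu*, *Timp3* and *Bmp4* were lower with log2 fold changes between -3.74 and -1.63. *Vegfa* did not pass the limits (-0.86), and *Sulf1* (-0.85) and *Frzb* (0.29) met the rule for a like level.

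Epithelial genes were mostly lower or listed for the tissue only. Of 23 junction and polarity genes 11 were lower, 6 were listed for the tissue only and 3 were higher. The shares over all genes tested were 20.0% lower and 14.3% higher, and 22.4% of the tissue table was listed there only. *Cdh1*, E-cadherin, had 0.139, 0.365, 0.626 and 0.192 CPM in culture and 159, 163 and 101 CPM in tissue (log2 fold change -9.10, SE 0.35), and *Cdh3*, P-cadherin, a classical cadherin of mouse RPE, 0.324, 0.0912, 0.251 and 0.192 against 45.3, 35.9 and 32.5 CPM (-7.46). *Cdh2*, N-cadherin, was higher, with 57.9, 86.6, 81.9 and 83.9 CPM in culture and 26.9, 18.4 and 37.4 CPM in tissue (log2 fold change 1.31, adjusted p = 5.05e-04, edgeR), and at 1.06 without tissue 2 it missed the limit on the fold. Tight junction genes were split. *Tjp1*, which encodes ZO-1, met the rule for a like level at 267 to 328 CPM in culture and 343 to 376 CPM in tissue (log2 fold change -0.48), as did the polarity gene *Pard3* (-0.45) and *Ezr*, the ezrin of apical microvilli (-0.71). *Ocln* (9.15 to 15.2 CPM in tissue), *F11r* (40.6 to 76.9 CPM) and *Cldn19*, the main claudin of human RPE (2.16 to 10.4 CPM), were listed for the tissue only. The claudins *Cldn2* and *Cldn1* were higher in culture, *Cldn2* with 57.4, 86.1, 109.9 and 132 CPM against 32.2, 10.7 and 18.5 CPM (log2 fold change 2.03, SE 0.38) and *Cldn1* with a log2 fold change of 1.25, which fell below the limit without tissue 2 (1.10), tissue 3 (1.19), culture 3 (1.13) or culture 4 (1.13). The adaptors *Cgn* (-7.10), *Patj* (-3.37) and *Nherf1* (-2.31) were lower.

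Of 13 genes of keratins and simple epithelium, 7 were listed for the tissue only, 4 of the 5 tested were lower and 1 was not analysed here. *Krt8* and *Krt18*, the keratin pair of RPE and other simple epithelia, had 49.8, 54.5 and 22.9 and 78.4, 34.8 and 55.7 CPM in tissue. *Krt19* had 0, 0.639, 0.125 and 0.0962 CPM in culture and 191 ± 81.8 CPM in tissue (SD, n = 3). *Grhl2*, a factor that maintains epithelia, had 1 count over the 4 culture libraries and 18.8 to 32.5 CPM in tissue, 1412-fold lower with a counting interval from 253 to 55769. *Pkp2*, a plakophilin, met the rule for a like level (0.27). This list does not measure the RPE alone. *Krt5*, *Krt14*, *Krt15* and *Krt12*, keratins of stratified epithelia that include the cornea and conjunctiva, had 1379.8 to 2216, 97.5 to 250.2, 886 to 1690.0 and 509 to 1149.8 CPM in tissue, and *Muc4*, a mucin of the ocular surface, had 7911, 9244 and 7821 CPM. The part of such epithelium in the values of *Cdh1*, *Epcam*, *Esrp1* and the keratins was not tested.

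Mesenchymal genes rose. Of 19 genes 13 were higher and 1 was lower, and the list took 3.07 to 3.77% of the counts in culture and 0.275 to 0.355% in tissue. *Postn*, which encodes periostin, had 9207, 11553, 13119 and 10172 CPM in culture and 77.2, 119 and 86.1 CPM in tissue, 103-fold higher (log2 fold change 6.69, SE 0.28, adjusted p = 1.36e-07, edgeR). *Fn1*, fibronectin, had 9330.0, 14170.0, 13895 and 13557 against 167, 173 and 277 CPM (54.7-fold higher), and *Vim*, the intermediate filament of mesenchymal cells, 2668, 2493, 2303 and 2417 against 312, 386 and 334 CPM (6.35-fold higher). *Tnc* (3.12), *Sparc* (2.83), *Twist1* (2.43) and *Prrx1* (2.43) rose as well on the log2 scale. The other factors of epithelial to mesenchymal transition were less clear. *Snai2* (-0.16), *Zeb1* (0.72) and *Zeb2* (-0.76) met the rule for a like level, and *Snai1*, at 5.38 to 9.91 CPM in culture and 1.82 to 2.59 CPM in tissue, was higher (1.52). *Tgfbi* was the member that was lower (-1.56), and *Cd44* was kept (-0.13).

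Collagen genes of fibroblasts were among the most abundant RNAs of the culture. *Col1a1* had 6299, 4576, 5400.4 and 4557 CPM in culture and 213, 549.7 and 951 CPM in tissue (log2 fold change 3.04, SE 0.46), and *Col1a2* and *Col3a1* had log2 fold changes of 3.34 and 4.14. Per kilobase of exon, *Lox*, *Postn*, *Sparc*, *Fn1* and *Col1a1* stood at percentiles 100.0, 100.0, 99.9, 99.9 and 99.9 of the culture table. *Pdgfra*, a receptor of mesenchymal cells, had 1329.6, 1953, 2006 and 2005 CPM in culture and 87.0, 162 and 106 CPM in tissue, 13.5-fold higher. Other fibroblast genes went the opposite way. *Dcn*, decorin, had 482 to 1336 CPM in culture and 2255 to 4376 CPM in tissue (log2 fold change -1.89), *Pi16* and *Dpt* had log2 fold changes of -6.06 and -5.23, and *Lum*, lumican, was listed for the tissue only, at 387 to 643 CPM. In all, 4 of the 13 fibroblast genes were higher, 5 were lower and 2 were listed for the tissue only. Among all genes tested 14.3% were higher and 20.0% lower, and 22.4% of the tissue table was listed there only.

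The genes of Bruch's membrane and basement membrane moved in both directions. Of 21 genes 10 were higher and 6 lower, beside 14.3% and 20.0% of all genes tested. *Col4a1* and *Col4a2*, the collagen IV chains of most basement membranes, rose, *Col4a1* with 519 to 676 CPM in culture and 57.2 to 84.2 CPM in tissue (log2 fold change 2.99, SE 0.17). *Col4a3* and *Col4a4*, chains of specialised basement membranes, fell, *Col4a3* with 1.35 to 1.71 CPM in culture and 104 to 136 CPM in tissue (log2 fold change -6.51, SE 0.18). Among laminins *Lamb1* (2.13) and *Lamc1* (1.81) rose and *Lama5* fell (-3.74). *Nid1*, *Nid2*, *Fbn1* and *Fbln5* rose with log2 fold changes between 1.90 and 2.67. *Htra1*, a protease linked to macular degeneration, had 380.1, 336, 322 and 308 CPM in culture and 20.1, 14.2 and 18.3 CPM in tissue (17.0-fold higher), while *Timp3*, the inhibitor of metalloproteinases in Bruch's membrane, fell (-1.65) and *Eln*, elastin, fell (-4.71). *Col8a1* and *Lamb2* met the rule for a like level.

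Of 13 contractile and YAP target genes 7 were higher and 2 lower, with a median log2 fold change of 1.21, and 0.71 without culture 1. *Acta2*, smooth muscle actin, had 1926, 853, 752 and 861 CPM in culture and 167, 103 and 108 CPM in tissue (log2 fold change 2.97, SE 0.42), and without culture 1 its log2 fold change was 2.47. The YAP targets *Ccn1* (3.63), *Ankrd1* (4.52, and 5.11 without tissue 3) and *Amotl2* (1.92) rose, and *Ccn2* met the rule for a like level (-0.70). *Cnn1* (-2.74, and -3.44 without culture 1) and *Lmod1* (-1.42), of differentiated smooth muscle, fell.

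Among genes at 100 CPM or more in the higher group, the 10 largest rises were *Hmga2*, *Brinp3*, *Lox*, *Ccl7*, *Postn*, *Masp1*, *Ccl2*, *Bmper*, *Fn1* and *Adam12*. *Hmga2*, a chromatin protein of embryonic and tumour cells, had 169.9, 298, 250.0 and 315 CPM in culture and 0.254, 0.370 and 0.496 CPM in tissue (log2 fold change 9.22, SE 0.29, adjusted p = 3.40e-08, edgeR). *Lox*, the enzyme that crosslinks collagen, had 6989, 6921, 7538 and 7249 against 19.8, 33.1 and 25.5 CPM (242-fold higher), and *Adam12*, a protease of mesenchymal cells, 239.9 to 372 against 3.36 to 6.47 CPM. *Bmper*, a regulator of BMPs, had 173 to 205 CPM in culture and 2.59 to 3.08 CPM in tissue. The chemokine genes *Ccl2* and *Ccl7* and the lectin pathway gene *Masp1* rose too, and each was lowest in culture 1, *Ccl2* at 86.9 CPM against 252 to 299 CPM in culture 2 to 4. Without tissue 3 the log2 fold change of *Brinp3* was 11.09 in place of 8.64, and without tissue 1 that of *Ccl7* was 7.86 in place of 7.20.

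The 10 largest falls were *Snap25*, *Tmprss11b*, *Tmprss11g*, *Pkp1*, *Rapgef4*, *Ucp2*, *Palmd*, *Lyz2*, *Sparcl1* and *Myoc*. Several of these are known from cells other than the RPE. Each had 0 to 11 counts over the 4 culture libraries and was tested through the tissue libraries alone. Their direction was thus set in advance, and only the size of the fall is a result. *Snap25*, a synaptic protein, had 17.1, 12.0 and 367 CPM in tissue, with tissue 3 far above the other two, and 0 counts in culture, at least 2241-fold lower against a floor of 3 counts over the 4 culture libraries, and at least 248-fold lower without tissue 3. *Tmprss11b*, a protease of stratified epithelium, had 102, 104 and 63.7 CPM in tissue and 0 counts in culture, at least 1522-fold lower. *Lyz2*, the lysozyme of macrophages, had 0.139, 0.182, 0.501 and 0.192 CPM in culture and 658, 850.1 and 717 CPM in tissue (log2 fold change -11.83, SE 0.28), and *Myoc*, of the trabecular meshwork and sclera, 0, 0.0912, 0.501 and 0.192 against 223, 320.3 and 447 CPM. *Ucp2*, a carrier of the inner mitochondrial membrane, had 0.185, 0, 0.125 and 0.0962 CPM in culture and 649.9, 412 and 459 CPM in tissue. The fitted log2 fold change of *Snap25* was no longer called without culture 1, with an adjusted p of 0.149 in edgeR.

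Proliferation genes rose together. Of 20 mitosis genes 18 were higher (14.3% of all genes tested were higher) and 0 lower, with a median log2 fold change of 2.24, and of 22 DNA replication genes 11 were higher and 0 lower (1.22). Neither list had a lower gene in DESeq2 or, in edgeR, at an unadjusted p under 0.05 (0 in each). *Top2a*, a topoisomerase of dividing cells, had 445, 449.9, 436 and 441 CPM in culture and 53.3, 61.4 and 28.9 CPM in tissue (log2 fold change 3.02, SE 0.26, adjusted p = 9.66e-06, edgeR). *Bub1*, of the spindle checkpoint, had 39.3 to 48.5 against 1.76 to 4.43 CPM (11.3-fold higher), and *Rrm2*, which makes deoxynucleotides, 43.0 to 60.9 against 3.42 to 4.13 CPM (12.0-fold higher). *Mki67* changed less, from 145, 173 and 102 CPM in tissue to 438, 421, 389.9 and 385 CPM in culture (1.36, and 1.15 without tissue 3, under the limit). The tissue libraries thus held mitosis RNA as well, and *Pcna* met the rule for a like level (0.65).

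The promoter of *Cdk1* (log2 fold change 3.11, SE 0.28), the kinase that starts mitosis, is shown because it holds letters known from promoters of mitosis genes. Capitals mark CCAAT or its reverse ATTGG and TTTGAA or its reverse TTCAAA in the 150 bases before the RefSeq start, which are chr10:69188743-69188892 of GRCm39 on the minus strand.
Cdk1: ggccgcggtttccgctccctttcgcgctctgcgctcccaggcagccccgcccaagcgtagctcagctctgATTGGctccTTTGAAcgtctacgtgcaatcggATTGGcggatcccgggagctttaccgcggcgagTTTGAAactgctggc
The CCAAT letters lie 80 and 48 bases before the start and the TTTGAA letters 71 and 15 bases before it. Within 250 bases before the start, 12 of the 15 mitosis promoters in the table held CCAAT (80.0%, and 33.8% of all promoters), and 5 held TTTGAA (33.3%, and 16.0% of all). Of the 20 promoters of DNA replication genes, 14 (70.0%) and 3 (15.0%) did.

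E6 and E7 act on p53 and on the RB family, and those RNAs were looked at by name. *Trp53* was higher, with 102, 103, 116 and 121 CPM in culture and 30.6, 37.6 and 28.3 CPM in tissue (log2 fold change 1.59, SE 0.14, adjusted p = 9.39e-06, edgeR). Of the 20 genes of p53 and its targets 7 were higher, 1 was lower and 8 were kept. Over all genes tested 14.3% were higher, 20.0% lower and 40.9% kept. Without culture 1, 4 were higher, and without tissue 1, 2 were lower. *Cdkn1a*, the p53 target that halts the cycle, was kept, with 135, 82.3, 91.3 and 82.1 against 94.6, 89.8 and 59.5 CPM, as was *Mdm2* (0.64), while *Trp53inp1* (2.33), *Fas* (2.40) and *Eda2r* (1.64) rose. *Zmat3* was higher as well (1.28), but was under the limit on the fold without culture 1 (0.90) and also without tissue 2. *Perp*, a p53 target that is also a desmosome protein, fell, with 3.92 to 9.12 CPM in culture and 325 to 485 CPM in tissue (-6.37). *Rb1* (-0.37) and *Rbl2* (0.34) were kept, *Rbl1* did not pass the limits (1.02), and *E2f1* rose (1.78). *Cdkn2a* was listed in the culture table only, and had 1 count over the 4 WT culture libraries, since the tables list genes by their level in all of their libraries. *Cdk4* rose (1.71), and the inhibitors *Cdkn1c* (-4.14) and *Cdkn2b* (-3.77) fell.

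Of 16 glycolysis genes 7 were higher and 0 lower (edgeR, also 0 in DESeq2 and 1 at an unadjusted p under 0.05). *Pgk1*, phosphoglycerate kinase, had 660.4, 695, 553 and 534 CPM in culture and 52.0, 31.1 and 47.1 CPM in tissue (12.5-fold higher), *Pgam1* 102 to 128 against 6.53 to 10.1 CPM (12.6-fold higher) and *Ldha* 746 to 915 against 240.1 to 372 CPM (1.31, and 1.17 without tissue 1, under the limit). Several of these genes have processed pseudogenes that can share reads with them, so their levels are uncertain to that extent. Of 29 nuclear genes of oxidative phosphorylation 1 was higher, 8 were lower and 12 were kept, with a median log2 fold change of -0.29, and these shares were near those over all genes tested (34.3% called in either direction and 40.9% kept). The higher gene was not called without culture 1 or without tissue 2, and without culture 1 the median was -0.50. *Ppargc1a*, the coactivator of mitochondrial biogenesis, fell from 117, 101 and 123 CPM in tissue to 0, 0.547, 1.00 and 0.962 CPM in culture (-7.97, and -7.33 without culture 1). *Cpt1a* (-0.11), *Acadm* (-0.18) and *Hadha* (-0.26) of fatty acid oxidation were kept. In all, 8 of the 13 genes of fatty acid oxidation and ketogenesis were kept and 3 were lower, beside 40.9% and 20.0% of all genes tested.

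Cholesterol synthesis genes were lower (9 of 18, with 0 higher in edgeR, in DESeq2 and at an unadjusted p under 0.05), and culture 1 stood apart from the other culture libraries. Summed over the list, culture 1 held 794 CPM, culture 2 to 4 332 to 368 CPM and the tissue 774 to 1057 CPM. *Idi1*, the isomerase of isopentenyl diphosphate, had 5.37, 1.82, 1.00 and 0.962 CPM in culture and 15.4, 10.6 and 14.3 CPM in tissue (-2.55, SE 0.54, and -3.61 without culture 1). *Sc5d*, of a late step, had 42.9, 37.4, 30.3 and 30.2 CPM against 106, 89.1 and 90.7 CPM (-1.60). Of the lysosomal genes 12 of 18 were kept (40.9% of all genes tested were), among them *Lamp1* (-0.47) and *Ctsb* (0.12). *Ctsd*, the main protease of outer segment digestion, fell (-2.20), as did the regulator *Tfeb* (-2.48), and *Npc2* rose (1.87). Of 15 NRF2 targets 2 rose (*Hmox1* 2.55 and *Gclc* 1.72), 3 fell (*Gsta4* -6.13, *Slc7a11* -3.09 and *Nqo1* -2.27) and 8 were kept, beside the 40.9% over all genes tested. Without tissue 1 the log2 fold change of *Slc7a11* was -2.31.

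In the BMP and TGF-beta list 4 of 21 genes rose, 6 fell and 2 were listed for the tissue only. Over all genes tested 14.3% were higher, 20.0% lower and 40.9% kept. The counts of the lists in this paragraph were not tested against those shares. *Bmp2* had 0 counts in culture and 23.6, 10.9 and 14.2 CPM in tissue, at least 276-fold lower, and *Bmp7* was listed for the tissue only, at 27.2 to 65.3 CPM. *Bmp3* rose (3.09), and so did the BMP antagonist *Grem1*, with 94.3, 56.0, 47.5 and 52.0 CPM in culture and 6.77, 0.370 and 0.0551 CPM in tissue, where tissue 1 stood above the other tissue libraries (4.49, SE 0.99, and 8.02 without tissue 1 or 3.90 without tissue 3). *Tgfbr2* rose (1.83), *Tgfbr1* was kept (-0.36) and *Tgfb1* fell (-3.50). Among Wnt genes 4 of 17 fell, with *Sfrp2* the largest (-6.85, and -5.68 without tissue 3 or -7.50 without culture 3), and *Axin2*, a target of the pathway, fell (-1.66), while *Dkk2* rose (1.39, and 0.91 without culture 1, under the limit). In the retinoic acid list *Aldh1a1*, which makes retinoic acid, rose (406, 734, 913 and 935 CPM in culture, 109, 115 and 109 CPM in tissue, 2.55). *Aldh1a3* fell (-2.99) and *Aldh1a2* was listed for the tissue only. In all 2 of the 12 genes of that list rose and 5 fell. Of 11 IGF genes *Igfbp2* rose (1225, 1133, 1272 and 1576 CPM against 74.3, 33.2 and 52.6 CPM, 4.42), 3 fell and 4 were kept. Of the same list 3 genes rose without tissue 2 and 2 without tissue 1, culture 2 or culture 4. *Igfbp3* had 2 counts over the 4 culture libraries against 63.7 to 117 CPM in tissue.

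Interferon-stimulated genes rose in 11 of 14 and MHC class I genes in 8 of 10, but not to the same extent in every culture library. *Ifit1*, an interferon-induced RNA sensor, had 27.5, 293, 369 and 359 CPM in culture 1 to 4 and 20.5, 16.5 and 15.9 CPM in tissue (log2 fold change 3.67, SE 0.75, adjusted p = 0.00262, edgeR). Culture 1 lay near the tissue, and culture 2 to 4 far above it. *Mx1* had 0.278 CPM in culture 1, below the tissue at 1.71 to 3.26 CPM, and 23.5 to 36.0 CPM in culture 2 to 4, and its call (log2 fold change 2.93, adjusted p = 0.0396, edgeR) was lost on leaving out any library but culture 1, with adjusted p from 0.0654 to 0.101. The MHC gene *H2-K1* had 152, 516, 544 and 729 CPM in culture and 114, 123 and 93.7 CPM in tissue (1.92). Summed over the 14 interferon-stimulated genes, culture 1 held 458 CPM, culture 2 to 4 2281 to 2862 CPM and the tissue 345 to 379 CPM. Without culture 1, 12 of the 14 and 8 of the 10 were higher. Of the 14, 10 were higher without culture 2, 3 or 4 and 9 without tissue 1, 2 or 3. Of the 10 MHC class I genes, 7 were higher without culture 2, tissue 1 or tissue 2. For the same list it was 6 without culture 3 or 4 and 4 without tissue 3.

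The *Ifit1* promoter is shown because it holds the letters of the interferon-stimulated response element. Capitals mark 2 copies of GAAA with any 2 bases between them, or the reverse with TTTC, at 104 and 85 bases before the RefSeq start, in chr19:34618139-34618288 of GRCm39 on the plus strand.
Ifit1: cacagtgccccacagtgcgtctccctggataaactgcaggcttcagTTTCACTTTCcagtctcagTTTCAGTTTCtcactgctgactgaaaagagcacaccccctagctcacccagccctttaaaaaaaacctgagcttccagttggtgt
Of the 9 interferon-stimulated genes with an entry in the promoter table, 7 held the letters within 250 bases before the start (77.8%), and of all promoters 2.98% did. Of the 10 promoters of MHC class I genes 1 did (10.0%).

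**Figure D3:**
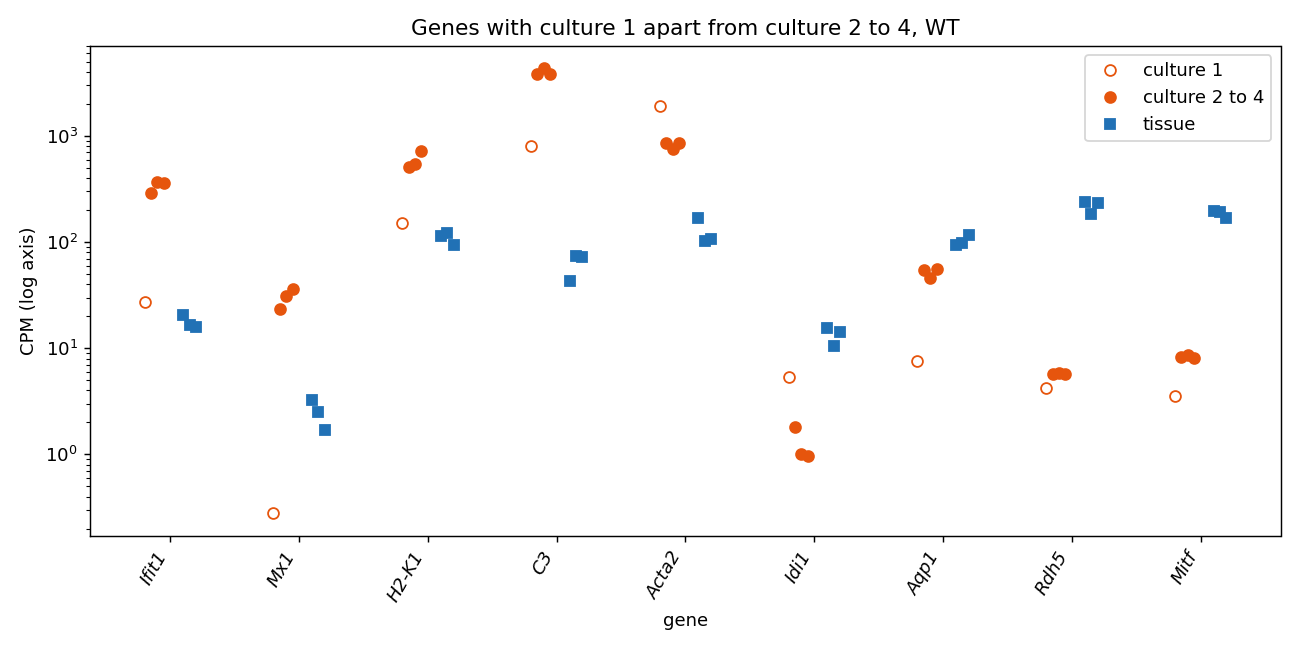
Level in each library of selected genes for which culture 1 (prefix 8995) lay outside the range of culture 2 to 4 (prefix 9262), in CPM on a log axis. Among them *C3*, *Acta2*, *Mitf* and *Rdh5* passed Dixon's limit used in the closing section, and the others did not. Circles are culture libraries, with culture 1 open, and squares are tissue libraries. Culture 1 lies near the tissue for *Ifit1* and below culture 2 to 4 for *C3*, and above them for *Acta2* and *Idi1*.

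Complement genes were split. *C3*, the central component, had 802, 3849.7, 4356 and 3819.7 CPM in culture and 42.6, 73.6 and 71.9 CPM in tissue (log2 fold change 5.47, SE 0.59, adjusted p = 5.15e-05, edgeR), and *C1s1* and *C1ra* rose (3.53 and 3.33). The inhibitors *Cd55* (-1.64), *Cd59a* (-4.51) and *Serping1* (-3.16) fell, as did *C4b* (-1.53) and *C2* (-4.86). Culture 1 was the lowest culture library for *C3*, *C1s1*, *C1ra* and *Serping1*, as it was for *Ifit1* and *Mx1*. Without it, *C4b* no longer passed the limit on the fold (adjusted p = 1.04e-04, edgeR). The call of *C4b* was also lost without tissue 1 or culture 2 (adjusted p = 0.0659 and 0.0548, edgeR), and that of *Cd55* without tissue 2 or culture 2 (adjusted p = 0.0755 and 0.0613, edgeR).

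RPE/choroid holds cells other than the RPE, and these were looked at by marker lists. Of 20 endothelial genes 9 were listed for the tissue only and 9 were lower, with 0.278, 0.730, 0.501 and 0.770 CPM of *Pecam1* in culture and 29.3, 65.7 and 46.9 CPM in tissue. *Kdr*, the VEGF receptor of endothelium, was an exception, at 273, 213, 193 and 217 CPM in culture and 87.0, 179 and 122 CPM in tissue, and met the rule for a like level (0.62), as did *Eng* (-0.04), while *Cdh5* and *Tie1* were listed for the tissue only. Of 19 macrophage genes 12 were listed for the tissue only and 7 were lower, and their summed level was 11.1 to 14.4 CPM in culture and 1336 to 1747 CPM in tissue. Without tissue 1, 2 or 3, 5 of them reached the counts needed for testing, and all 5 were lower. All 11 genes of melanocytes and Schwann cells were lower or listed for the tissue only, with *Sox10* at 81.8, 101 and 129 CPM in tissue. Of 12 genes of pericytes and smooth muscle 7 were lower, with *Rgs5* the largest fall (-9.44), and 3 were higher (2 without culture 1), *Pdgfrb* among them (347, 416, 433 and 455 CPM against 72.7, 113 and 91.9 CPM, 1.97). Globin RNAs were listed for the tissue only, with *Hbb-bs* at 61.1, 112 and 91.0 CPM.

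Photoreceptor RNA differed between the tissue libraries. The 22 photoreceptor genes summed to 641, 310.1 and 6094 CPM in tissue 1 to 3 and to 19.1 to 26.0 CPM in culture. Tissue 3 thus held the most of it. Of the 15 inner retina genes 8 were listed for the tissue only and 4 of 5 tested were lower, or 2 without tissue 3, culture 2 or culture 4. Skeletal muscle genes summed to 1091, 2436 and 3617 CPM in the tissue libraries, with *Myh4* at 608, 1229 and 1931 CPM, and to 8.64 to 13.3 CPM in culture. Of 12 mast cell and lymphocyte genes 10 were listed for the tissue only, each at 5.13 CPM or less in every tissue library, and of the 2 lens genes tested neither passed the limits. The part of these cells in a fall of a gene that the RPE shares with them was not tested.

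**Figure D4:**
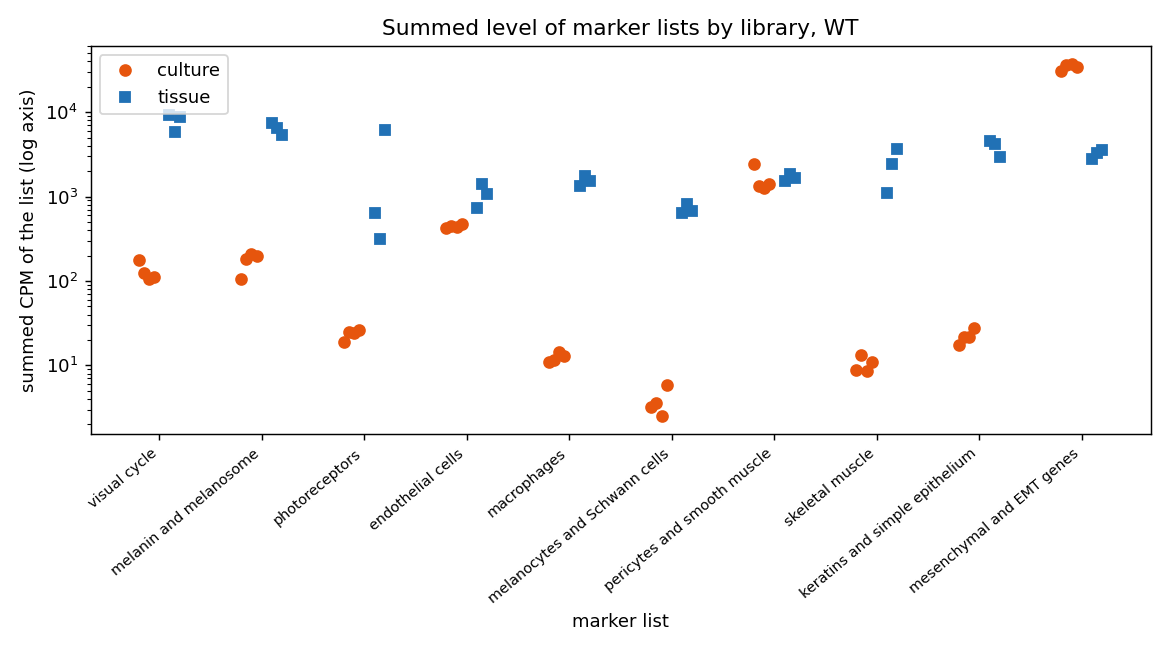
Summed level of 10 marker lists in each library, in CPM on a log axis, for genes listed in either table. Circles are culture libraries and squares tissue libraries. Photoreceptor genes reach 6094 CPM in tissue 3 and mesenchymal genes are the list highest in culture.

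Genes listed in 1 table only ranged widely in level. Of the 5591 in the tissue table, 3118 had a mean over 1 CPM and 725 over 10 CPM, and together they held 6.89% to 8.06% of the tissue counts outside mt- genes. The 10 highest were *Muc4*, *Ptgds*, *Ttr*, *Rgr*, *Krt5*, *Dct*, *Krt15*, *Dsp*, *Tyrp1* and *Myh4*. *Ptgds*, the prostaglandin D synthase, had 4522, 1972 and 2575 CPM, *Ttr* 3542, 1750.4 and 2779 CPM and *Rgr* 2754, 1989 and 2973 CPM. This set mixes genes of the RPE and pigment cells with those of stratified epithelium and muscle. *Prom1*, the gene that the study deletes, had 177, 181 and 202 CPM in the WT tissue libraries and was listed in the tissue table only.

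Of the 1470 genes listed in the culture table only, 388 were over 1 CPM and 24 over 10 CPM, and they held 0.144% to 0.220% of the culture counts. Among the 10 highest were *Dhrs9*, *Serpinb9b*, *Serpina3m*, *Gm36393*, *1700006J14Rik*, *Hoxa7*, *Gm15433*, *Prl2c2* and *Gbp10*. *Dhrs9*, a short-chain dehydrogenase of retinol and steroids, had 135, 105, 134 and 142 CPM. All 16 *Hox* genes listed in either table were listed for the culture only, 9 of the *Hoxa* cluster, 6 of the *Hoxb* cluster and *Hoxd8*. *Hox* genes set position along the axis of the trunk in the embryo. *Hoxa7* (chr6:52191471-52198834, minus strand, GRCm39) had 19.4, 23.8, 20.0 and 22.7 CPM, *Hoxa5* 10.2, 13.3, 11.3 and 13.1 CPM, *Hoxa10* 12.7, 11.4, 10.6 and 10.1 CPM and *Hoxd8* 9.31, 7.76, 7.14 and 7.31 CPM. Summed over the 16 genes, the level was 86.3 CPM in culture 1 and, on either side of it, 105, 85.4 and 103 CPM in culture 2 to 4.

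Of the remaining lists, circadian clock genes were lower in 7 of 14, with *Dbp* at 6.44, 7.94, 8.02 and 9.72 CPM in culture and 125, 96.8 and 125 CPM in tissue (-4.04) and *Per3* and *Nr1d1* at -3.29 and -3.07, while *Clock* (0.06) and *Per1* (-0.54) were kept. The hour at which cells or eyes were taken is not given in the sources used here. Immediate-early genes, which respond to handling, were lower in 8 of 12 (5 without tissue 1), with *Fos* at 8.12 to 12.2 CPM in culture and 18.5 to 37.0 CPM in tissue. For the clock and immediate-early lists alike, the share lower over all genes tested was 20.0%. Of 88 ribosomal protein genes 28 were higher and 4 lower, with a median log2 fold change of 0.78, and their share was 5.62% in culture 1, 3.31 to 3.76% in culture 2 to 4 and 1.28 to 1.83% in tissue. Without culture 1, 23 were higher and 10 lower with a median of 0.49, and the lower genes were 2 without culture 2, culture 3 or tissue 1 and 1 without culture 4. These genes have many processed pseudogenes and their levels are uncertain. The Y-linked genes *Ddx3y*, *Uty*, *Kdm5d* and *Eif2s3y* were kept, with *Kdm5d* at 72.4 to 82.6 CPM in culture and 70.9 to 79.6 CPM in tissue. *Xist*, which silences an X chromosome in female cells, had 1.81, 1.00, 1.88 and 1.35 CPM in culture and 11.7, 13.1 and 12.4 CPM in tissue (-3.18, SE 0.25).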

How the data were processed

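RNA-seq counts of 4 WT libraries of cultured mRPE and 3 WT libraries of RPE/choroid were analysed. Per the labels and methods, the authors trimmed reads with Trim Galore 0.6.7, aligned them with STAR to mm39 and deposited raw counts per gene in 1 table for the culture and 1 for the tissue. The deposited normalized tables hold a signal, raw counts divided by a DESeq2 size factor set within each table, and were used here only to test what the tables were filtered on. The labels name polyA RNA and a stranded kit, and the methods another kit.

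The tables were joined on the Ensembl identifier, and 17 mt- genes of both tables were left out before library sizes were taken. edgeR 4.0.16 in R 4.3.3 (TMM, robust quasi-likelihood test, Benjamini-Hochberg adjustment) was fitted to the 19377 genes that reached 5 counts in 3 or more of the 7 libraries. The limits were 0.05 for the adjusted p and 1.2 for the size of the log2 fold change. The fit was tested on simulated data. Depth was 7982552 to 21600171 counts outside mt- genes, and floors of 3 counts and counting intervals (95% Poisson) cover counting error only. With replicates of 1 culture line, p-values measure the spread between these libraries.

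Annotation came from GENCODE vM39 and promoters from the RefSeq table of GRCm38.p6, located in GRCm39 by exact match. Gene lists (45) and members were chosen with earlier results of these data known, and 8 older symbols were matched through RefSeq synonyms. The genes named were the anchors of each list, the called member with the largest change in each direction, members of the RPE and epithelium lists that were kept, the 10 called genes with the largest change in each direction at or over 100 CPM in the higher group with no overlap of libraries (symbols of the Gm and Rik forms left out), and the 10 most abundant genes of each table's own. Some genes that these rules name are not reported here. Other genes were named after their values were seen. Alternatives were other scalings (DESeq2 size factors, total count, upper quartile), DESeq2 1.42.0, other filters, mt- genes kept, thinned tissue counts, no limit on the fold, Prom1-KO libraries in place of WT, each library left out in turn and, chosen after seeing the data, protein-coding genes only.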

Additional observations from a re-analysis of the deposited data

Results flagged for a closer look

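In 24 of the 203 named genes with at least 20 counts in culture, the highest or lowest of the 4 culture libraries lay apart from the nearest other by a share of the range above Dixon's 95% critical value. Chance flags about 1 in 20 groups where genes are chosen without regard to their values, and genes are not independent. Some of the named genes were chosen after their values were seen, so that rate does not apply to them as a set. The levels compared are CPM without the TMM factors of the fit. Those factors were 0.936 for culture 1 and 1.06, 1.01 and 1.08 for culture 2 to 4. How many genes would be flagged with them applied was not tested. Culture 1, the library with the prefix 8995, was the one apart in 21 of the 24 genes. It was the lowest for *C3* (802 CPM against 3819.7 to 4356), *Ccl7* (72.1 CPM against 144 to 155), *Cdh2* (57.9 CPM against 81.9 to 86.6), *Dcn* (482 CPM against 1215 to 1336), *Ezr* (129 CPM against 154 to 158), *Fn1* (9330.0 CPM against 13557 to 14170.0) and *Gbp10* (1.204 CPM against 20.1 to 22.5), where the second values are the range of the other culture libraries. It was also the lowest for *Meis2* (181 CPM against 235 to 238), *Mitf* (3.52 CPM against 8.08 to 8.64), *Pdgfra* (1329.6 CPM against 1953 to 2006), *Rbl2* (83.9 CPM against 120.2 to 127), *Rdh5* (4.21 CPM against 5.75 to 5.89) and *Serpina3m* (14.1 CPM against 47.5 to 50.5). It was the highest for *Acta2* (1926 CPM against 752 to 861), *Anxa2* (472 CPM against 346 to 364), *Cnn1* (1.16 CPM against 0.385 to 0.501), *Dkk2* (302 CPM against 122 to 141), *Lmod1* (12.0 CPM against 6.51 to 6.93), *Perp* (9.12 CPM against 3.92 to 4.13) and *Rdh10* (13.8 CPM against 9.12 to 9.77). Further genes highest in culture 1 were *Zmat3* (160.3 CPM against 81.9 to 85.3). Another library was apart for *Pax6*, with culture 4 at 2.31 CPM and the others at 0.877 to 1.09 CPM, *Tfeb*, with culture 2 at 3.38 CPM and the others at 4.62 to 4.77 CPM and *Vegfa*, with culture 2 at 143 CPM and the others at 76.0 to 84.4 CPM.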

How the results depend on the processing

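Over the other scalings, tests and filters tried on all genes, 2547 to 3002 genes were higher and 3672 to 4033 lower, and with each library left out 2642 to 2745 were higher, 3575 to 3877 lower and 7129 to 8448 kept. RPE genes were then 37 to 38 lower, 4 to 6 higher and 14 to 16 kept, and epithelium genes 14 to 15 lower, 1 to 3 higher and 4 kept, with 1 higher without tissue 2. With no limit on the fold 5966 genes were higher and 6144 lower, and 8 RPE genes were higher. Tested alone, protein-coding genes gave 1655 higher and 2715 lower out of 13302. With the Prom1-KO libraries in place of the WT ones, 4371 genes, 10 of them RPE genes, were kept. In that setting 31 RPE genes were lower, in place of 38, and 4 were higher. There 0 epithelium genes were higher (edgeR, also 0 at an unadjusted p under 0.05). Of the genes higher and lower in WT 1800 and 2773 were called so again. The visual cycle median was -1.48 in place of -4.68. For eye-field and RPE transcription factors the median was -0.70 in place of -1.49. The melanin, transport and phagocytosis medians with Prom1-KO libraries lay below those of WT, and that of secreted factors slightly above. There the log2 fold changes that turned in sign were -0.27 for *Aldh1a1*, -0.0783 for *Bmp3*, -0.11 for *Cdh2*, 0.77 for *Cdkn2b*, -0.38 for *Cldn2*, -1.47 for *Dkk2*, 0.29 for *Enpp2*, -0.28 for *Fbln5*, -0.0490 for *Gas6*, 1.16 for *Nqo1*, 1.61 for *Slc16a1*, 0.92 for *Slc7a11*, 0.29 for *Sox9*, -0.28 for *Vax2* and 1.73 for *Vegfa*, and the cause was not tested. Only *Slc16a1* had an adjusted p under 0.05 there (0.00287, edgeR), and for the others it was 0.0774 to 0.984. The Prom1-KO culture libraries pool different clones, and the paper removed some of these libraries as outliers. Genes over 1 CPM in 1 table only were 388 for culture and 3118 for tissue, and over 10 CPM 24 and 725. With mt- genes in the total, the mean shares were 0.262% (visual cycle) and 0.211% (melanin) in tissue, 0.275% and 0.0832% for phagocytosis in culture and tissue, and 2.78% and 0.106% for mesenchymal genes. No paired analysis was possible because a replicate number in culture and the same number in tissue come from different cells, animals and sequencing sets.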
